A study of Mus musculus with 9 samples.

Results

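The genes described here are 37 mouse genes of the hypoxia and glycolysis programme, among 54429 symbols in a table of RNA-seq counts from 9 whole tumors. They were chosen by symbol and fall into 5 roles. There were 3 genes of the hypoxia-inducible factors (HIF), 2 prolyl hydroxylases that act on HIF, 14 glycolytic enzymes, 6 genes of glycolytic transport and regulation, and 12 other HIF targets. All 37 passed the filter on low counts, with the smallest count of any member in any library being 29 (Adm).

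Tumors were grown from NB9464, a mouse neuroblastoma line with amplified MYCN, by placing cells under the skin of C57BL/6 mice that were 4 to 6 weeks old. All tumors therefore came from 1 cell line, and they are a subcutaneous model rather than tumors of the adrenal gland or sympathetic chain. Mice entered treatment when tumors reached 250 mm3 and received vehicle, R788 + anti-PDL1, or Rad + R788 + anti-PDL1, with 3 tumors in each group. The third group is called irradiated here. R788 (fostamatinib) is an oral prodrug of a Syk inhibitor, Syk being a kinase of immune receptor signalling, and its dose was 50 mg/kg. Anti-PDL1 (clone 10F.9G2) blocks a checkpoint ligand of T cells, and radiation was a single dose of 10 Gy. The series text lists 4 treatment days from day 28 to day 37. Radiation can be compared only on top of both agents, and R788 and anti-PDL1 cannot be told apart. The study was motivated in part by the role of Syk in macrophages, where it stabilises HIF1alpha, and this makes the response of the HIF programme in the whole tumor a question of the design.

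HIF is a transcription factor made of an oxygen-labile alpha subunit, encoded by Hif1a or Epas1, and a stable partner encoded by Arnt. In oxygen the prolyl hydroxylases mark the alpha subunit for destruction. In low oxygen the dimer accumulates and binds short DNA elements near its targets, which include most enzymes of glycolysis, the glucose and lactate transporters, and genes of pH control, mitophagy, collagen hydroxylation and growth arrest. Control of HIF activity is largely at the protein level, so the mRNA of Hif1a is not a readout of HIF activity. Many tumors, including those driven by MYC proteins, use glycolysis in the presence of oxygen as well. In bulk tumor RNA a smaller number of expressing cells and less RNA per cell cannot be told apart.

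Libraries held 18276683 to 23397886 counts. A count of 0 allows up to 3 counts, or 0.115 to 0.221 CPM (the count scaled to sequencing depth, here with TMM factors), and covers counting error only. Nothing in the labels says how the 3 tumors of a group were collected, so p-values measure the spread between these samples. Irradiated replicate 1 stood apart over all genes, with a TMM factor of 0.743 against 0.975 to 1.12 elsewhere, the lowest share of mitochondrial counts (1.97% against 3.48% to 5.71%) and a log2 CPM correlation with the other libraries of 0.86 to 0.91 against 0.94 to 0.98 among those 8. The markers of noradrenergic neuroblasts were divided. Phox2a, Dbh, Th and Chga were at 3 counts or fewer and Chgb at 15 or fewer in every library, whereas Hand2 was high, at mean levels of 373, 455 and 633 CPM in vehicle, R788 + anti-PDL1 and irradiated tumors. Ddc was at 16.6, 5.44 and 8.66 CPM, Gata3 at 4.86, 0.432 and 6.25 CPM and Isl1 at 0, 2.65 and 1.12 CPM in the same order. The labelled tumor type was thus borne out only in part by these transcripts.

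Upstream sequences are shown for the members whose values the comparisons turn on most and that had a RefSeq window lying wholly or largely outside the transcript: Pdk1 and Ddit4, the 2 members that passed the test, and Adm, the member with the largest fold change. HIF binds the core motifs ACGTG and GCGTG, which were searched on both strands in the 250 bases before each RefSeq start (GRCm38.p6). The palindrome CACGTG, bound by MYC family proteins, contains ACGTG. Capitals mark either core motif on either strand, and sequences run 5′ to 3′ on the strand of the gene. The Ddit4 window was ended at the GENCODE start of the gene, which left 186 bases.
Pdk1, chr2:71872974-71873223, plus strand: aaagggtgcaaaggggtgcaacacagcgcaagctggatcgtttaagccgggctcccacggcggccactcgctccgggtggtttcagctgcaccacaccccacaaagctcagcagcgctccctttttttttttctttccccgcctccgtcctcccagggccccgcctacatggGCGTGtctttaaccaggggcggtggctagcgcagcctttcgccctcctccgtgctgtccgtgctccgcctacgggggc
Ddit4, chr10:59951835-59952020, minus strand: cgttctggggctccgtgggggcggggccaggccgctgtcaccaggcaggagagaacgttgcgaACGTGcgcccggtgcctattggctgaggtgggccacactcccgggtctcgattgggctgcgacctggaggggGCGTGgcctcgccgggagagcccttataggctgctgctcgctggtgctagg
Adm, chr7:110627407-110627656, plus strand: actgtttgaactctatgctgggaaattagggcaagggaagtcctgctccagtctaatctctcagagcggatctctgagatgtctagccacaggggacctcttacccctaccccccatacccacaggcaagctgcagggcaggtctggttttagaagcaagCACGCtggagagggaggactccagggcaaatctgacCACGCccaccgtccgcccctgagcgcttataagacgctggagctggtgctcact

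The Pdk1 window shown held a single GCGTG, 78 bases before the start. Pdk1 had 2 RefSeq starts, and the window of the other (chr2:71874654-71874903) held neither motif. The Ddit4 window held ACGTG and GCGTG at 187 and 115 bases before the RefSeq start, which are 123 and 51 bases before the end of the shortened sequence printed here, and Adm held GCGTG on the opposite strand at 90 and 54 bases. Over the 33 members with a RefSeq window, 30 (90.9%) held either motif, against 41.5% of all genes and 47.1% of protein-coding genes. A gene counted when any of its windows held the motif, and the 33 members had 47 windows, against 32851 windows for 27025 genes. The part of the number of windows in the shares was not tested. Either motif was present in 11 of 14 glycolytic enzymes (78.6%) and in 10 of 10 other HIF targets with a window. For ACGTG alone the shares were 42.9% of the enzymes and 80% of the other targets, against 18.5% of all genes, and CACGTG was present in 12.1% of members and 6.86% of all genes. Base composition moved with these shares, since the median GC content was 62.8% over the members' windows and 52.4% over all windows. Its part in the shares was not tested, and a match is a run of letters and not a bound site.

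In vehicle tumors the glycolytic enzymes ranged from 3.46 to 589 CPM per kilobase of exon (CPM per kb). The length used was the union of all annotated exons of a gene, not that of an expressed transcript. Per kilobase of exon, the highest mean levels were those of Pkm, the last enzyme that makes pyruvate (589 ± 36.1 CPM per kb, SD, n = 3), Ldha, which converts pyruvate to lactate (532 ± 55.0), the enolase Eno1 (528 ± 64.4), the aldolase Aldoa (510 ± 21.9), the mutase Pgam1 (506 ± 10.9) and the kinase Pgk1 (453 ± 50.4). Each of these neighbours differed from the next by less than the sum of their SDs, and Tpi1, the isomerase that follows, lay lower at 278 ± 43.1. The highest gene outside the enzymes was Ddit4 (107 ± 19.6), a stress-induced inhibitor of mTORC1, next to Gpi1 (104 ± 5.36). The lowest levels per kilobase were those of Epas1 (1.35 ± 0.170), the kinase-phosphatase Pfkfb4 (2.51 ± 0.349) and the minor aldolase Aldoc (3.46 ± 1.80). Eno2, the neuronal enolase, was at 7.13 ± 1.61, and Hk1 and Hk2, both hexokinases, were at 11.2 ± 0.445 and 15.4 ± 2.97 CPM per kb. The order depends on the lengths. Not divided by length, Hk1 was at 95.4 and Hk2 at 91.8 CPM. In the same measure Pkm, Eno1, Ldha and Pgam1 were at 2947, 2838, 1760 and 1003 CPM.

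**Figure D1:**
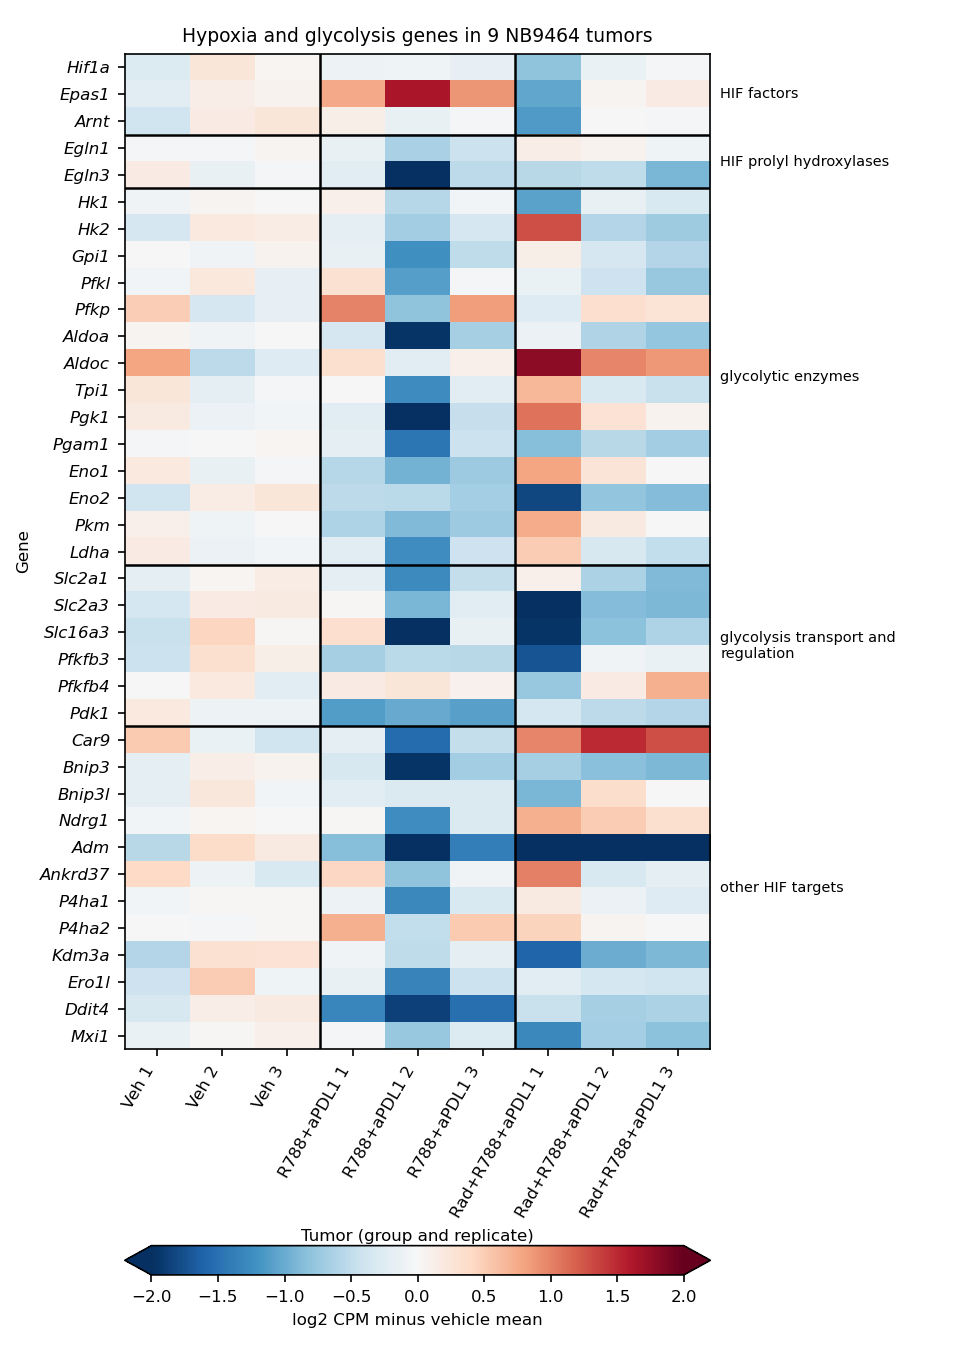
Log2 CPM of each of the 37 genes (rows, grouped by role) in each of the 9 tumors (columns; Veh, vehicle; aPDL1, anti-PDL1; Rad, irradiated), minus the mean of the 3 vehicle tumors, with colour saturated at 2 in either direction. R788 + anti-PDL1 replicate 2 is the lowest of the 9 tumors at 23 of 37 genes, Pdk1 and Ddit4 are low in all 3 R788 + anti-PDL1 tumors, and Adm is low in all 3 irradiated tumors.

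Tumors treated with R788 + anti-PDL1 had lower mRNA of Pdk1 and Ddit4 than vehicle tumors. These 2 of 37 members passed the test in edgeR, both lower, against 0.678% of all genes tested in either direction and 0.289% in the lower direction. Pdk1 encodes the kinase that inhibits pyruvate dehydrogenase and so diverts pyruvate from the mitochondrion (chr2:71873224-71903858, ENSMUSG00000006494.11). Its levels were 430.2, 351 and 351 CPM in vehicle tumors, 173, 187 and 177 CPM in R788 + anti-PDL1 tumors and 295, 262 and 249 CPM in irradiated tumors. The 3 groups did not overlap for Pdk1, with R788 + anti-PDL1 lowest and irradiated tumors between. The mean was 2.11-fold lower with R788 + anti-PDL1 (log2 fold change -1.08 ± 0.18, SE, 95% interval -1.47 to -0.68, edgeR adjusted p = 0.0383).

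Ddit4 (chr10:59949669-59951834, ENSMUSG00000020108.4) was at 148, 204 and 211 CPM in vehicle tumors, 74.7, 50.8 and 65.2 CPM in R788 + anti-PDL1 tumors and 136.5, 116.5 and 119.8 CPM in irradiated tumors. As with Pdk1, the groups did not overlap and kept the order vehicle, irradiated, R788 + anti-PDL1. The mean was 2.95-fold lower with R788 + anti-PDL1 than with vehicle (log2 fold change -1.56 ± 0.22, 95% interval -2.05 to -1.08, edgeR adjusted p = 0.0375). Both calls were near the threshold. Leaving out vehicle replicate 2, vehicle replicate 3 or any single R788 + anti-PDL1 tumor ended both calls. In these refits edgeR called 0% of all genes, except without R788 + anti-PDL1 replicate 2, where it called 0.208%. Leaving out vehicle replicate 1 ended the call of Pdk1, with 0.449% of all genes called. Over these refits the log2 fold changes stayed between -1.13 and -0.95 for Pdk1 and between -1.70 and -1.43 for Ddit4.

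**Figure D2:**
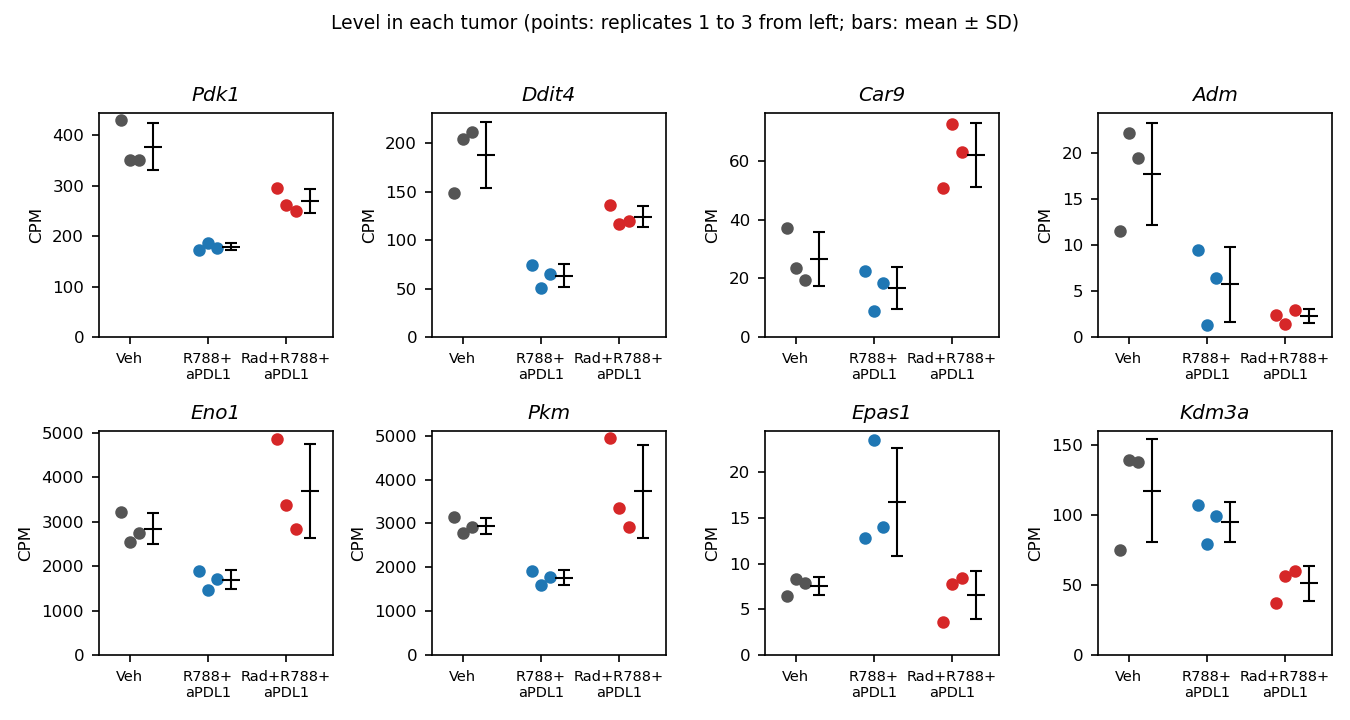
CPM (vertical axes, from 0) of 8 genes in each tumor, with replicates 1 to 3 from left to right in each group and the mean ± SD (n = 3) as a bar. Pdk1 and Ddit4 separate all 3 groups, with R788 + anti-PDL1 lowest, whereas Car9 is highest and Adm and Kdm3a are lowest on average in irradiated tumors.

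The remaining members were mostly below vehicle in mean but did not pass the test. The log2 fold change was negative for 33 of 37 members, against 51.6% of all genes, and the median was -0.46 over the members and -0.02 over all genes. At an unadjusted p under 0.05 there were 6 members lower and 1 higher (5.69% and 5.96% of all genes). The groups did not overlap for 17 members that were lower and 1 that was higher, against 16.5% and 13.6% of all genes. DESeq2 called 3 members (4.86% of genes), Pdk1 and Ddit4 lower and Epas1 higher.

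One library carried much of this shift. R788 + anti-PDL1 replicate 2 was the lowest of the 9 tumors at 23 of 37 members (62.2%), and at 14.8% of all genes. The median member lay at -0.94 in replicate 2, relative to the vehicle mean on the log2 scale, and at -0.14 and -0.34 in replicates 1 and 3. Without replicate 2 the median log2 fold change was -0.28 and 27 of 37 members were negative (52.2% of all genes). No member was then called by edgeR, which called 0.208% of all genes, and 7 members had an unadjusted p under 0.05. The log2 fold changes of 6 members then changed sign (Arnt, Hk1, Pfkl, Aldoc, Slc16a3 and Ankrd37), and those of 18 more moved by over 1.5 times. The same tumor had the highest summed level of 6 endothelial markers (121 CPM, against 36.4 to 62.9 in vehicle and irradiated tumors) and of 6 fibroblast markers (5370 CPM, against 2510 to 4920), and the lowest of 10 proliferation genes (1810 CPM, against 1880 to 2650). It also had the highest share of mitochondrial counts, at 5.71% against 1.97% to 4.70%. The part of these in the lower levels was not tested.

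Among the HIF factors, mRNA of Hif1a differed by less than the spread between tumors in every comparison. Hif1a was at 110.4, 158 and 138 CPM in vehicle tumors, 125, 126 and 119 CPM in R788 + anti-PDL1 tumors and 76.5, 122 and 131.5 CPM in irradiated tumors. The log2 fold changes were -0.14 ± 0.23 (95% interval -0.66 to 0.39) with R788 + anti-PDL1 and -0.30 ± 0.23 (-0.82 to 0.22) in irradiated tumors, both against vehicle. The second was -0.07 without irradiated replicate 1. Arnt likewise overlapped between all groups, at 116, 170.1 and 180 CPM in vehicle tumors, 165, 138 and 150.4 CPM in R788 + anti-PDL1 tumors and 69.4, 152 and 149.5 CPM in irradiated tumors. Its log2 fold changes against vehicle were -0.04 and -0.33. Without R788 + anti-PDL1 replicate 2 the first was 0.02, and without irradiated replicate 1, its lowest tumor, the second was -0.01.

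Epas1, which encodes HIF2alpha and is known for its expression in endothelium, was of opposite sign to most members. Its levels were 6.46, 8.26 and 7.89 CPM in vehicle tumors, 12.8, 23.5 and 14.0 CPM in R788 + anti-PDL1 tumors and 3.61, 7.76 and 8.40 CPM in irradiated tumors. All 3 R788 + anti-PDL1 tumors lay above all others, with replicate 2 highest. The log2 fold change of R788 + anti-PDL1 was 1.15 ± 0.37 against vehicle (edgeR adjusted p = 0.248), and that of irradiated against R788 + anti-PDL1 tumors was -1.34 ± 0.38 (edgeR adjusted p = 0.216). Without replicate 2 the first was 0.83. The summed endothelial markers were also highest in R788 + anti-PDL1 replicate 2. They were at 36.4 to 47.8 CPM in vehicle, 45.8 to 121 CPM in R788 + anti-PDL1 and 49.3 to 62.9 CPM in irradiated tumors. All 6 markers were higher in mean with R788 + anti-PDL1 than with vehicle, but the sum of replicate 1 (45.8 CPM) lay within the vehicle range. All irradiated tumors were above vehicle in this sum, and the log2 fold change of Epas1 there was -0.19, or 0.13 without irradiated replicate 1. The part of the endothelial markers in the level of Epas1 was not tested.

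Both prolyl hydroxylases are themselves HIF targets and so act as feedback. Egln1, the main oxygen sensor, was at 125, 123 and 131 CPM in vehicle tumors, 114, 80.2 and 93.8 CPM in R788 + anti-PDL1 tumors and 138, 133 and 119 CPM in irradiated tumors. The R788 + anti-PDL1 tumors were below all the others. Egln3, the more inducible of the pair, was at 80.7, 64.6 and 70.8 CPM in vehicle tumors, 61.9, 15.7 and 49.8 CPM in R788 + anti-PDL1 tumors and 49.0, 50.5 and 37.9 CPM in irradiated tumors. Vehicle tumors were above both treated groups for Egln3. Neither passed the test, with log2 fold changes against vehicle of -0.39 ± 0.18 and 0.04 ± 0.18 for Egln1 and of -0.76 ± 0.41 and -0.65 ± 0.41 for Egln3, giving R788 + anti-PDL1 first. The value of -0.76 was -0.37 without R788 + anti-PDL1 replicate 2.

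Of the 14 glycolytic enzymes, none passed the test in edgeR or DESeq2 with R788 + anti-PDL1, and 2 had an unadjusted p under 0.05. All but Pfkp had a negative log2 fold change, and the median was -0.56. For 8 enzymes every R788 + anti-PDL1 tumor lay below every vehicle tumor, against 16.5% of all genes. The clearest were Eno1 and Pkm. Eno1 was at 3222, 2548 and 2745 CPM in vehicle tumors, 1899, 1468 and 1706 CPM in R788 + anti-PDL1 tumors and 4862, 3379 and 2826 CPM in irradiated tumors. Pkm followed a like course, at 3142, 2786 and 2912 CPM, then 1922, 1591 and 1774 CPM, and then 4938, 3342 and 2928 CPM. For both genes the R788 + anti-PDL1 tumors were close to each other and below all the rest. Their log2 fold changes against vehicle were -0.75 ± 0.27 and -0.74 ± 0.26 (edgeR adjusted p = 0.304 and 0.283), and without replicate 2 of the treated group they were -0.66 and -0.68.

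For other enzymes the lower mean was most marked in R788 + anti-PDL1 replicate 2. Pgk1 was at 1143, 928 and 975 CPM in vehicle tumors, 878, 238.5 and 732 CPM in R788 + anti-PDL1 tumors and 2139, 1234 and 1061 CPM in irradiated tumors. Ldha was at 1966, 1619 and 1696 CPM in vehicle tumors, 1505, 739 and 1318 CPM in R788 + anti-PDL1 tumors and 2501, 1402 and 1248 CPM in irradiated tumors. Pgam1 was at 985, 998 and 1027 CPM in vehicle tumors, 879, 369 and 743 CPM in R788 + anti-PDL1 tumors and 556, 680.5 and 617 CPM in irradiated tumors. For all 3 genes replicate 2 held the lowest level of the 9 tumors, and all R788 + anti-PDL1 tumors were below all vehicle tumors. The log2 fold changes against vehicle were -0.72, -0.57 and -0.60, and -0.34, -0.32 and -0.31 without replicate 2. Irradiated tumors overlapped vehicle for Pgk1 and Ldha and were below it for Pgam1.

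Some less abundant isoforms had other patterns. Eno2 was at 24.9, 36.6 and 39.1 CPM in vehicle tumors, 22.8, 22.6 and 20.6 CPM in R788 + anti-PDL1 tumors and 9.22, 19.0 and 17.9 CPM in irradiated tumors, so its level was below vehicle in both treated groups and lowest after radiation. Aldoc was at 18.0, 7.18 and 8.66 CPM in vehicle tumors, 13, 8.83 and 11.2 CPM in R788 + anti-PDL1 tumors and 36.0, 20.6 and 19.0 CPM in irradiated tumors, where all 3 exceeded all others. Hk2, the inducible hexokinase, was at 71.4, 103 and 101 CPM in vehicle tumors, 79.1, 55.8 and 71.6 CPM in R788 + anti-PDL1 tumors and 221, 60.4 and 55.2 CPM in irradiated tumors. The high irradiated mean of Hk2 thus came from irradiated replicate 1 alone.

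The enzymes Hk1, Gpi1, Pfkl, Pfkp, Aldoa and Tpi1 had log2 fold changes from -0.84 (Aldoa) to 0.49 (Pfkp) with R788 + anti-PDL1 and from -0.47 (Aldoa) to 0.10 (Pfkp) in irradiated tumors against vehicle, and none passed the test. Pfkp and Aldoa are less certain. Pfkp shares exon sequence with Pitrm1 on the other strand, which had up to 9207 counts, and no source used here says whether the libraries kept strand. The symbol Aldoa covers 2 annotated identifiers. Processed copies of the enzymes held few reads, with at most 13 counts for Eno1b and at most 3 for the other 14 copies listed.

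Among the transporters, Slc2a1, the basal glucose transporter, was at 123, 145 and 155 CPM in vehicle tumors, 124, 57.8 and 101 CPM in R788 + anti-PDL1 tumors and 150.5, 89.9 and 75.7 CPM in irradiated tumors, and the groups overlapped in all 3 comparisons. Slc2a3, a high-affinity glucose transporter found on neurons and leukocytes, was at 49.5, 70.4 and 71.3 CPM in vehicle tumors, 63.7, 33.4 and 53.8 CPM in R788 + anti-PDL1 tumors and 14.5, 34.4 and 33.6 CPM in irradiated tumors. Every irradiated tumor was below every vehicle tumor for Slc2a3, with a log2 fold change of -1.21 ± 0.36 (edgeR adjusted p = 0.265), or -0.88 without irradiated replicate 1. The lactate exporter Slc16a3 varied most among replicates, from 2.71 to 34.7 CPM within R788 + anti-PDL1 tumors. The enzymes of fructose 2,6-bisphosphate, Pfkfb3 and Pfkfb4, had log2 fold changes of -0.62 and 0.16 with R788 + anti-PDL1 and of -0.51 and 0.15 in irradiated tumors, against vehicle, and neither passed the test. Without irradiated replicate 1 the irradiated values were -0.11 and 0.49.

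The other HIF targets divided in irradiated tumors. Car9, a membrane carbonic anhydrase used as a hypoxia marker, was at 37.1, 23.5 and 19.6 CPM in vehicle tumors, 22.7, 8.83 and 18.5 CPM in R788 + anti-PDL1 tumors and 50.7, 72.6 and 62.9 CPM in irradiated tumors. Irradiated tumors were above all others for Car9. Its log2 fold change was 1.21 ± 0.37 against vehicle (edgeR adjusted p = 0.265) and 1.9 ± 0.37 against R788 + anti-PDL1 (3.72-fold, 95% interval 1.06 to 2.73, edgeR adjusted p = 0.135), the lowest adjusted p of any member in that comparison. Without irradiated replicate 1 these were 1.37 and 2.03.

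Adm, which encodes the vasodilator peptide adrenomedullin, went in the opposite direction. It was at 11.6, 22.2 and 19.5 CPM in vehicle tumors, 9.44, 1.34 and 6.47 CPM in R788 + anti-PDL1 tumors and 2.43, 1.47 and 2.92 CPM in irradiated tumors. Every treated tumor was below every vehicle tumor. The log2 fold change was -1.63 ± 0.61 with R788 + anti-PDL1 (edgeR adjusted p = 0.329) and -2.96 ± 0.65 in irradiated tumors (7.78-fold lower, edgeR adjusted p = 0.151), and it was -2.97 without irradiated replicate 1.

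Kdm3a, a histone H3K9 demethylase induced by hypoxia, was at 74.8, 139 and 138 CPM in vehicle tumors, 107, 79.3 and 99.1 CPM in R788 + anti-PDL1 tumors and 37.1, 56.8 and 60.1 CPM in irradiated tumors. Mxi1, a MAX partner that opposes MYC, was at 104, 117 and 122 CPM in vehicle tumors, 112.5, 67.3 and 94.4 CPM in R788 + anti-PDL1 tumors and 46.5, 71.3 and 64.8 CPM in irradiated tumors. Both were below vehicle in all irradiated tumors, by 1.19 ± 0.29 and 0.91 ± 0.24 on the log2 scale (0.97 and 0.72 without irradiated replicate 1), with edgeR adjusted p of 0.192 and 0.221. Bnip3, a mitophagy receptor, was at 156, 193.5 and 185 CPM in vehicle tumors, 142, 45.3 and 109 CPM in R788 + anti-PDL1 tumors and 112, 99.6 and 94.8 CPM in irradiated tumors. Vehicle tumors were above all treated tumors for Bnip3.

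Ndrg1, a growth-arrest gene strongly induced by hypoxia, was at 156, 167 and 162 CPM in vehicle tumors, 165, 68.1 and 132 CPM in R788 + anti-PDL1 tumors and 264, 229.7 and 201 CPM in irradiated tumors. As for Car9, all 3 irradiated tumors were above all others, with log2 fold changes of 0.52 ± 0.29 against vehicle and 0.93 ± 0.29 against R788 + anti-PDL1 (edgeR adjusted p = 0.429 and 0.222). The 5 remaining targets, Bnip3l (mitophagy), Ankrd37, P4ha1 and P4ha2 (collagen prolyl hydroxylases) and Ero1l (oxidative folding), had log2 fold changes of -0.61 to 0.34 with R788 + anti-PDL1 and -0.37 to 0.27 in irradiated tumors, against vehicle, and none passed the test. Exons of Ankrd37 overlap those of Ufsp2 and Lrp2bp on the other strand, which had up to 1202 counts.

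In irradiated against vehicle tumors, no member was called by edgeR, where 0.0439% of all genes were. At an unadjusted p under 0.05 there were 2 members higher, Aldoc and Car9, and 9 lower, against 7.71% and 5.51% of all genes. The lower ones were Pgam1, Eno2, Slc2a3, Pdk1, Bnip3, Adm, Kdm3a, Ddit4 and Mxi1. The groups did not overlap for 3 members higher and 13 lower, against 9.27% and 11.2% of all genes. The log2 fold change was negative for 24 of 37 members and 47.1% of all genes, and the median was -0.30 over members and 0.05 over all genes. DESeq2 called 6 members (3.85% of genes), with Car9 higher and Eno2, Slc2a3, Adm, Kdm3a and Mxi1 lower, and limma-voom called none. Without irradiated replicate 1 the log2 fold changes of 5 members changed sign (Epas1, Hk2, Tpi1, Bnip3l and Ankrd37), and those of 15 more moved by over 1.5 times.

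Irradiated replicate 3 had the highest summed level of 10 macrophage markers, at 1920 CPM, with irradiated replicates 1 and 2 at 558 and 359 CPM, vehicle at 321 to 681 CPM and R788 + anti-PDL1 tumors at 711 to 725 CPM. Without it 23 of 37 members were negative. Summed erythroid markers (6 genes) were at 201 to 626 CPM in vehicle tumors, 58.2 to 109 CPM in R788 + anti-PDL1 and 48.9 to 183 CPM in irradiated tumors, so they were lower in both treated groups, as were Adm, Bnip3 and Pdk1. Their part in those levels was not tested. Markers of keratinocytes (5 genes) summed to 4.94 to 7.73 CPM in vehicle, 1.9 to 63.3 CPM in R788 + anti-PDL1 and 46.8 to 75.2 CPM in irradiated tumors. This sum followed Krt5 (means of 5.07, 29.2 and 58.5 CPM), while Krt14 was at 1.47, 0 and 0.0338 CPM and Krt1, Krt10 and Lor were at 10 counts or fewer in every tumor. T cell markers (6 genes) summed to 1.7 to 3.98 CPM in vehicle, 4.13 to 23.8 CPM in R788 + anti-PDL1 and 1.84 to 31.7 CPM in irradiated tumors. With R788 + anti-PDL1 this sum followed Cd4 (means of 1.66, 12.4 and 8.01 CPM in the same order). The remaining T cell markers had means of 0.0184 to 0.371, 0.136 to 0.533 and 0.641 to 1.54 CPM. Of these, Cd3e was lower with R788 + anti-PDL1 than with vehicle and the others were higher. Neutrophil markers (6) were at 4.8 to 13.1, 3.4 to 4.75 and 3.86 to 17.9 CPM. Skeletal muscle markers (8) reached 27.3 CPM in irradiated replicate 1 and lay at 8.16 to 10.9 CPM in the remaining tumors, and those of adipocytes (4) stayed under 1 CPM. The part of these cell types in the members' levels was not tested.

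**Figure D3:**
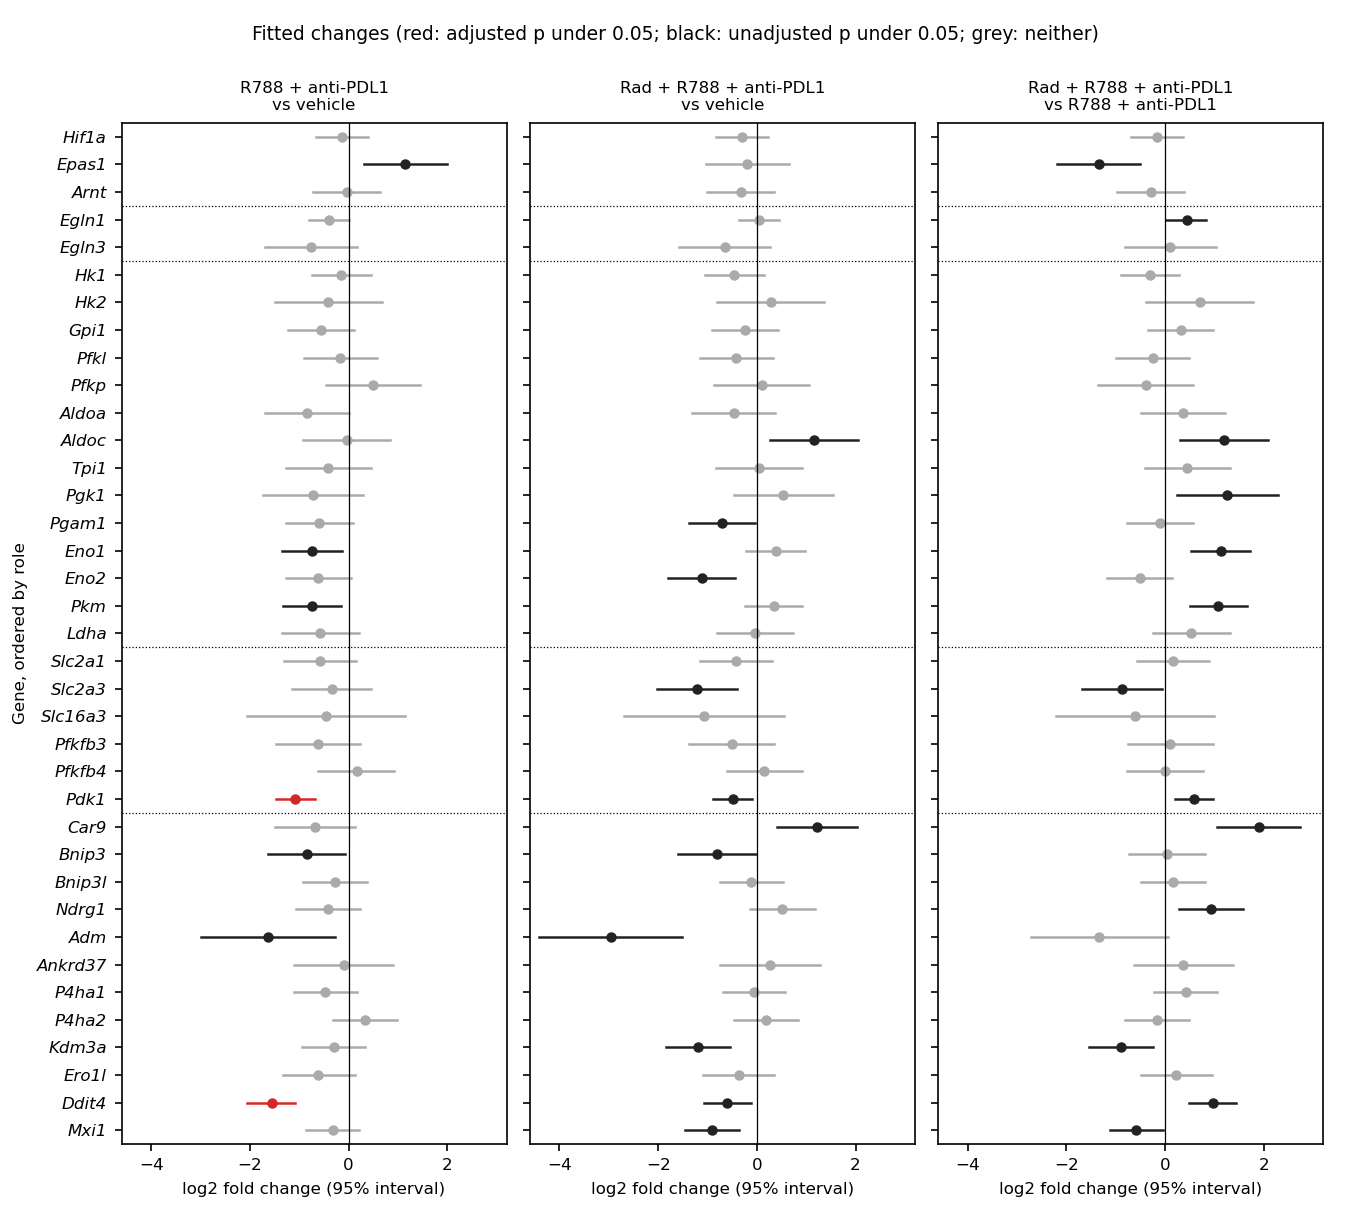
Fitted log2 fold change (horizontal axis) of each gene (rows, in order of role) with its 95% interval in the 3 comparisons, which share groups. Red marks the 2 genes that passed the edgeR test, black an unadjusted p under 0.05 and grey the others. With R788 + anti-PDL1 33 of 37 estimates are below 0, and the irradiated comparisons hold estimates on both sides.

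Between the treated groups, 9 members were higher and 4 lower in irradiated tumors at an unadjusted p under 0.05, against 11.7% and 6.65% of all genes. None was called by edgeR, which called 0.00628% of all genes. DESeq2 called 6 members (5.62% of genes), with Eno1, Pkm, Pdk1, Car9 and Ddit4 higher and Epas1 lower. Limma-voom called none. The log2 fold changes were 1.13 ± 0.27 for Eno1, 1.08 ± 0.26 for Pkm, 0.59 ± 0.17 for Pdk1 and 0.97 ± 0.21 for Ddit4. Without both R788 + anti-PDL1 replicate 2 and irradiated replicate 1 they were 0.80, 0.78, 0.56 and 0.77. The groups did not overlap for 9 members higher and 3 lower, against 14.2% and 13.2% of all genes. The log2 fold change was negative for 15 of 37 members and 47.5% of all genes. The median over members was 0.16, but it was 0.02 without R788 + anti-PDL1 replicate 2, 0.04 without irradiated replicate 1 and -0.18 without both, so the direction of the median rested on these tumors. Leaving out irradiated replicate 1 turned the sign of 6 members (Hif1a, Arnt, Hk2, Slc2a1, Bnip3 and Ankrd37), and leaving out R788 + anti-PDL1 replicate 2 turned that of 4 (Egln3, Slc2a1, Bnip3 and Ero1l).

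Glycolytic enzymes and other HIF targets did not part from each other by more than the spread between tumors. With R788 + anti-PDL1 their median log2 fold changes were -0.56 and -0.44, a difference of -0.12. In irradiated against vehicle tumors they were 0.00 and -0.24, a difference of 0.25, and in irradiated against R788 + anti-PDL1 tumors they were 0.41 and 0.20, a difference of 0.21. Within a tumor, enzymes minus targets was 0.23, -0.16 and -0.05 in vehicle, -0.07, 0.24 and -0.13 in R788 + anti-PDL1 and 0.65, 0.00 and -0.14 in irradiated tumors. These values overlapped between all groups, and the SD within the group was 0.20 in vehicle, 0.20 in R788 + anti-PDL1 and 0.42 in irradiated tumors. Irradiated replicate 1 set the last difference, and without it the irradiated tumors gave -0.05 against vehicle and -0.02 against R788 + anti-PDL1.

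**Figure D4:**
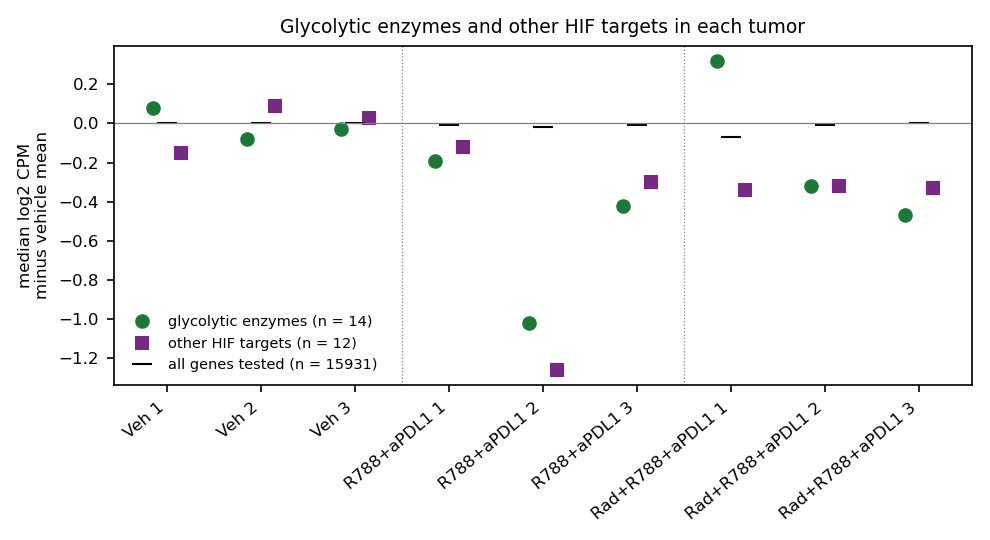
Median log2 CPM minus the vehicle mean (vertical axis) of the 14 glycolytic enzymes (circles), the 12 other HIF targets (squares) and all genes tested (dashes) in each tumor. Both lists are lowest in R788 + anti-PDL1 replicate 2, at -1.02 and -1.26, and only irradiated replicate 1 sets the enzymes (0.32) well above the other targets (-0.34).

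Both lists were also low together in R788 + anti-PDL1 replicate 2, where 10 of 14 enzymes and 9 of 12 other targets had their lowest level. In irradiated replicate 1 they parted, since 8 of 14 enzymes had their highest level of the 9 tumors there, against 3 of 12 other targets and 30.4% of all genes. All 3 HIF factors had their lowest level in that tumor, as did 34.7% of all genes.

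Ratios between related genes within a tumor do not depend on the scaling between libraries, and 10 pairs were examined. The ratio of P4ha2 to P4ha1 showed the least spread. It was 0.547, 0.500 and 0.526 in vehicle tumors, 0.917, 0.910 and 0.930 in R788 + anti-PDL1 tumors and 0.630, 0.592 and 0.623 in irradiated tumors. The 3 groups did not overlap, and R788 + anti-PDL1 replicate 2, in which both genes were low, held the same ratio as its group. On the log2 scale the ratio was 0.81 higher with R788 + anti-PDL1 than with vehicle and 0.58 lower in irradiated than in R788 + anti-PDL1 tumors, with SDs of 0.02 to 0.07 within groups. An exact permutation test of 3 against 3 cannot give a p under 0.1.

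Epas1 to Hif1a was 0.0617, 0.0551 and 0.0603 in vehicle tumors, 0.108, 0.197 and 0.124 in R788 + anti-PDL1 tumors and 0.0498, 0.0673 and 0.0674 in irradiated tumors. Eno2 to Eno1 was lower in all irradiated tumors (0.00217 to 0.00726) than in all others (0.00884 to 0.0176). Egln3 to Egln1 was 0.431 to 0.514 in irradiated and 0.710 to 0.875 in vehicle tumors. The hexokinase ratio Hk2 to Hk1 reached 6.99 in irradiated replicate 1, whereas 8 tumors lay between 1.0 and 1.5. Of the 10 ratios, groups did not overlap for 5 with R788 + anti-PDL1 against vehicle, all higher, for 4 in irradiated against vehicle tumors (2 in each direction) and for 4 between the treated groups, all lower. The direction of a ratio depends on which gene of the pair is divided by the other. Single genes did not overlap in 30.1%, 20.5% and 27.4% of cases in these comparisons. Those shares are for levels and not for ratios, and no share over ratios of other gene pairs was computed.

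**Figure D5:**
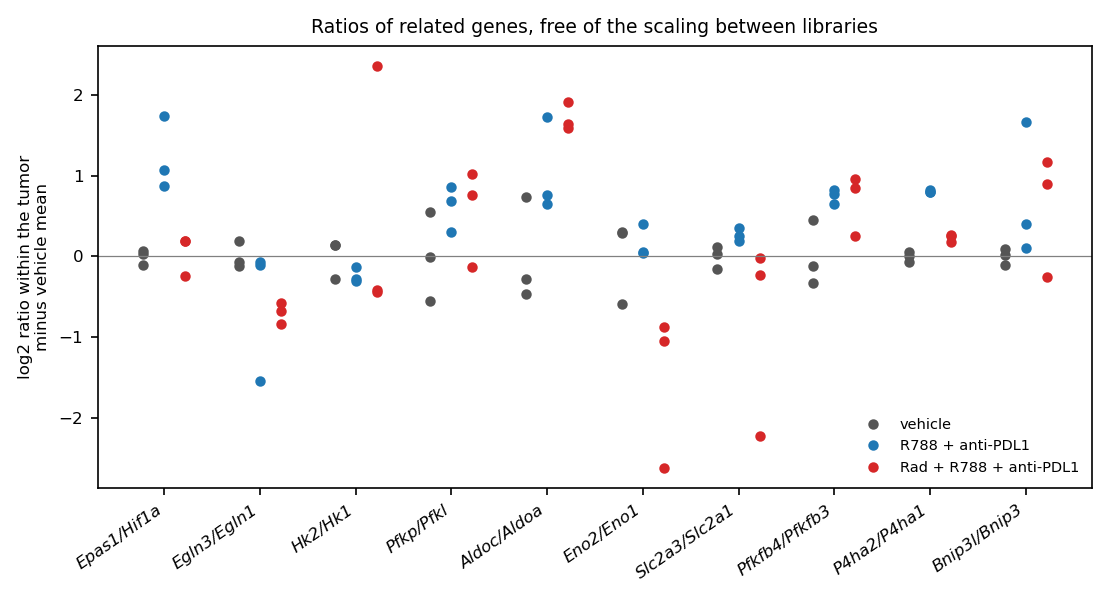
Log2 ratio of 10 pairs of related genes in each tumor, minus the mean of the vehicle tumors, with 1 point per tumor. The ratio P4ha2/P4ha1 separates the 3 groups with little spread, and Hk2/Hk1 has 1 irradiated tumor far above the rest.

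Further genes of glycolysis and of the HIF response were counted by list. Of 21 other glycolysis genes 15 were tested and of 28 other HIF genes all were, and edgeR called none in any comparison. With R788 + anti-PDL1 against vehicle, 1 glycolysis gene was higher and 2 lower at an unadjusted p under 0.05, and 3 HIF genes were higher and 4 lower. DESeq2 called 2 of the first list and 4 of the second in that comparison. In irradiated against vehicle tumors these counts at an unadjusted p under 0.05 were 1 and 2, and 4 and 4, and DESeq2 called 0 and 3. Between the treated groups they were 3 and 1, and 6 and 5, and DESeq2 called 1 and 8. Over all genes, 5.96% were higher and 5.69% lower at an unadjusted p under 0.05 in the first comparison. The shares were 7.71% and 5.51% in the second and 11.7% and 6.65% in the third. DESeq2 called 4.86%, 3.85% and 5.62% of all genes in these comparisons, and edgeR called 0.678%, 0.0439% and 0.00628%. Among the genes with the lowest p with R788 + anti-PDL1 were Hkdc1, a minor hexokinase at 0.315 ± 0.119 CPM in vehicle and 2.13 ± 0.811 CPM in treated tumors (edgeR adjusted p = 0.0702), Pgm2 (-0.83 ± 0.19, 0.0955) and the repressor Bhlhe40 (-1.26 ± 0.28, 0.089), with log2 fold change and edgeR adjusted p in parentheses. In irradiated against vehicle tumors they belonged to Bhlhe40 again (-1.34 ± 0.28, 0.142), Selenbp1 (1.0 ± 0.29, 0.261), Hkdc1 (1.28 ± 0.55, 0.365) and Pfkfb2 (-1.04 ± 0.45, 0.372). Between the treated groups they were Selenbp1 (1.70 ± 0.30, 0.133), Lox, a collagen crosslinking enzyme (-2.67 ± 0.55, 0.139), Pgm2 (0.98 ± 0.19, 0.135) and Hkdc1 (-1.44 ± 0.51, 0.229).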

How the data were processed

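RNA from 9 whole tumors was sequenced after polyA selection. The authors aligned reads to mm10 with STAR 2.6.1d and quantified them with Salmon 1.4.0 (versions per the submitters' processing notes), and the deposited table holds estimated counts per symbol as whole numbers, not normalized. How they were rounded and summed to symbols, and the strandedness, were not given in the sources used here. The labels' extraction text names macrophages although the tissue is whole tumor, and the labels and the study's methods name different sequencers.

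Genes passing filterByExpr (minimum count 10) numbered 15931. After TMM scaling, edgeR 4.0.16 under R 4.3.3 was used with the robust quasi-likelihood F test, with all 9 libraries in 1 fit, a coefficient per group and no covariate. A gene was called at a Benjamini-Hochberg adjusted p under 0.05 over all genes tested. All tests were two-sided. The script was tested on simulated counts with less spread between replicates than these data and no library standing apart, so that test covers an easier setting. DESeq2 1.42.0, limma-voom (limma 3.58.1, also with sample quality weights), other scalings and filters, a replicate block and omission of each library were alternatives. Coordinates, identifiers and exon lengths are from GENCODE M21 (GRCm38), and upstream sequences from RefSeq (GRCm38.p6), which matched 33 of 37 members.

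The members, their roles, the pathway lists and the marker lists were chosen with earlier results of these data known. Values by tumor are given for members that were called, or that had an unadjusted p under 0.05 without overlap of the groups, in any comparison, and always for Hif1a, Slc2a1, Hk2, Ldha, Car9, Ndrg1 and Egln3. Other pathway genes are named where called or among the 2 lowest p of their list, except where a gene is not reported here.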

Additional observations from a re-analysis of the deposited data

How the results depend on the processing

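With R788 + anti-PDL1 against vehicle, 2 members were called. This count was 20 with sample quality weights (30.3% of all genes) and 4 with only the 6 libraries compared (3.84%). It was 0 to 5 when 1 library was left out (0% to 5.15%), with 5 reached without irradiated replicate 1 (5.15%). A pair of alternatives was chosen after seeing the data: scaling by library size gave 0 (0% of all genes), and leaving out R788 + anti-PDL1 replicate 2 and irradiated replicate 1 together gave 6 (8.97%). In irradiated against vehicle tumors the count was 0, and 6 with DESeq2, 13 with sample quality weights (12.5%) and 7 with both libraries left out (1.95%). Between the treated groups it was 0, and 6 with DESeq2, 13 with sample quality weights (19.3%), 1 without the low-count filter (0.0858%) and 6 with both left out (5.48%). With the replicate block the counts were 0, 0 and 0, and 0%, 0.0188% and 0% of all genes were called. Same-numbered tumors deviated together at r of -0.046 to 0.23. Tumors of different numbers were not correlated across groups for comparison, so these values do not settle whether the numbers pair the tumors. Scaling by library size set the median of all genes at 0.13, 0.00 and -0.14 in the 3 comparisons, and 29, 26 and 18 of 37 members were then negative, against 38.3%, 50.1% and 59.4% of all genes. The causes were not tested. Enzymes minus other HIF targets stayed within the pooled SD of the groups compared (0.20, 0.33 and 0.33) of the reported differences, at -0.22 to -0.02, -0.05 to 0.46 and -0.02 to 0.38. Over the 37 members, 3 comparisons and all alternatives, 1812 of 1924 log2 fold changes kept their sign and 112 did not, and 75 of 111 values kept it throughout. Values that did not pass the test passed it in 80 refits. These include refits with sample quality weights, with DESeq2 and with both libraries left out. Of all genes, sample quality weights called 30.3%, 12.5% and 19.3% in the 3 comparisons. DESeq2 called 4.86%, 3.85% and 5.62%, and the fit with both libraries left out called 8.97%, 1.95% and 5.48%. Where a fit left a group with fewer tumors, the spread was pooled over all groups. Depth did not limit the members, each of which had at least 29 counts in every library.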
